A study of Homo sapiens with 6 samples.

Results

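In CUT&RUN of the transcription factor MYT1L, 1176 reproducible regions lay at neighbouring gene pairs, that is, within 1000 bp of an end of at least 2 different protein-coding genes. CUT&RUN uses an antibody to bring a nuclease to a chromatin protein, and the DNA cut out around it is sequenced. Peaks of the 4 MYT1L libraries that overlapped by at least 1 bp were merged into 49028 regions on chromosomes 1 to 22, X and Y. Of these, 12299 had a peak in at least 3 libraries and 11091 also had no peak in either IgG library. The 1176 regions made up 10.6% of the 11091. Another 5547 lay at 1 gene and 4368 at none, while 65 regions that met every other condition at gene pairs were left out for an IgG peak. The regions were thus chosen by the presence of peaks, and their peak heights are given as a description.

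All 6 libraries came from H1, a single line of human embryonic stem cells, carried the designation WT (wild type) and were collected at day 30. They differed in the antibody, with 4 libraries for MYT1L and 2 for IgG, a control antibody with no intended chromatin target. The design text describes the cells as cortical interneurons derived from the stem cells, while the cell type entered for each sample is the embryonic stem cell, and peak lists hold no expression values by which to check either. The labels do not say that the libraries came from separate cultures, so every p-value measures only the spread between these libraries, which may be technical.

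MYT1L is a zinc finger transcription factor of neurons, known for repressing genes of other cell fates and for a short recognition core, AAGTT. Genes whose starts lie close together on opposite strands are called head-to-head or divergent. Where their bodies do not overlap, they are transcribed away from a common stretch of DNA, which is often rich in CG dinucleotides. Such pairs are known to include many genes for DNA repair, mitochondrial proteins and other functions that every cell uses.

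The MYT1L libraries held between 12310 and 30086 peaks and the IgG libraries 976 and 998. Read totals are unknown. The genome-wide background, estimated from the deposited fold and −log10 p with the formulas of the peak caller MACS, was between 0.421 and 1.18 fragments per position in the MYT1L libraries and 0.329 and 0.19 in the IgG libraries. MYT1L replicate 4 had the most peaks and replicate 2 the fewest and the lowest background of the MYT1L libraries. Peak number and estimated background therefore moved with the antibody. Values with equal numbers of peaks are given beside each comparison of MYT1L with IgG that tests the groups, and in them the groups overlapped; the part of the background was not tested.

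The sequences of 5 divergent pairs show how closely the promoters of such genes lie together. They come from the RefSeq promoter table (GRCh38.p14), 300 bases for each gene, read 5′ to 3′ on the gene's own strand, from 250 bases before its start to 50 after. Capitals mark matches, on either strand, to any of 7 short motifs: AAGTT (the core of MYT1L sites), CCAAT (the CCAAT box of factor NF-Y), GGGCGG (the GC box of the Sp family), CCGGAAG (sites of the ETS family), the consensus of NRF1, AAGATGGCG (the YY1 motif) and TATAAA (the TATA box). UBE2D3 (chr4:102868846-102869145, minus strand) and CISD2 (chr4:102868742-102869041, plus strand) are shown first because their starts, 97 bp apart, lie in a region with a high fold. Their promoter windows share 196 bases, read in opposite directions.
UBE2D3: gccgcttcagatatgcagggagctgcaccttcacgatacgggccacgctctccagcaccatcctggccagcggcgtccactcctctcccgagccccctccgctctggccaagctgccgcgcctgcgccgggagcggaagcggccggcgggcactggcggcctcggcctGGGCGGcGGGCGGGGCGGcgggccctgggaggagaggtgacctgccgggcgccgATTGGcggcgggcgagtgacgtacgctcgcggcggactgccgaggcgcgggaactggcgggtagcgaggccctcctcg
CISD2: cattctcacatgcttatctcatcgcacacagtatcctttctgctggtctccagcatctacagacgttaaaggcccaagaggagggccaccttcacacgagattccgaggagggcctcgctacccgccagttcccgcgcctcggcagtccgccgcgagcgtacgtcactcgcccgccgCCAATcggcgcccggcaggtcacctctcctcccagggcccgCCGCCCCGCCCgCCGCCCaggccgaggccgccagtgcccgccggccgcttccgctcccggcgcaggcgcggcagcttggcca
CFAP210 (chr2:169694356-169694655, minus strand) and PHOSPHO2 (chr2:169694219-169694518, plus strand) lie at the region with the highest mean fold, and their windows share 163 bases.
CFAP210: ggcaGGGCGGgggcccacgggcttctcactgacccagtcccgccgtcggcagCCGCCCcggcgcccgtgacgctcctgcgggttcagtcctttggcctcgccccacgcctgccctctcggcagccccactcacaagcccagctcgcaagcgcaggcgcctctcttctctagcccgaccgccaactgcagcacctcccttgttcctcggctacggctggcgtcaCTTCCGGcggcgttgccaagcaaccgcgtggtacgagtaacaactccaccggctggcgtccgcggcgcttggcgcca
PHOSPHO2: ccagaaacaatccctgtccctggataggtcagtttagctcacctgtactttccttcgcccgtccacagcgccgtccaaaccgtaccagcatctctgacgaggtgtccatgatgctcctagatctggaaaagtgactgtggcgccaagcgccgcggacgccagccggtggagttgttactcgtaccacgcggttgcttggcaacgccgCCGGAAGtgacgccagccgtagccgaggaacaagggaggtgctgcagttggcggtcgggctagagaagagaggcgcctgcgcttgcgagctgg
CCDC59 (chr12:82358756-82359055, minus strand) and METTL25 (chr12:82358279-82358578, plus strand) show the other geometry, in which the start of each gene lies inside the other gene. The starts are 276 bp apart and the windows share 0 bases.
CCDC59: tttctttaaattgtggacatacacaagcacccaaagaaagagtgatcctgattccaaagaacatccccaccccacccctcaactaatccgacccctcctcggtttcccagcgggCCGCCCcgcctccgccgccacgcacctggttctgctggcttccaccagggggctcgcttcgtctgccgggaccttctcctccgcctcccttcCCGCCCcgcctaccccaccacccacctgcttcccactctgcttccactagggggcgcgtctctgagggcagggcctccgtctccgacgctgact
METTL25: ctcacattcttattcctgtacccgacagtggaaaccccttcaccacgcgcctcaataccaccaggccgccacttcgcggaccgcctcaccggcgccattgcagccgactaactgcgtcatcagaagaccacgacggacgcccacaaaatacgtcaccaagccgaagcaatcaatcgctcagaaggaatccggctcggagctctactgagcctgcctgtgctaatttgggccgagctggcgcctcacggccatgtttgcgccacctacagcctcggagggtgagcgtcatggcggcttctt
NPAT (chr11:108222589-108222888, minus strand) and ATM (chr11:108222817-108223116, plus strand) are a well-known divergent pair whose starts are 429 bp apart and whose windows share 72 bases.
NPAT: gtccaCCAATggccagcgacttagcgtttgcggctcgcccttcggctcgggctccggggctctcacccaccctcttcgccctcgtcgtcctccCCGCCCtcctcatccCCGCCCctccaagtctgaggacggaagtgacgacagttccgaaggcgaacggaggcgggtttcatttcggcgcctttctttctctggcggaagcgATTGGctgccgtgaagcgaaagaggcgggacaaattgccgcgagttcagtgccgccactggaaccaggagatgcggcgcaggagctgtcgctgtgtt
ATM: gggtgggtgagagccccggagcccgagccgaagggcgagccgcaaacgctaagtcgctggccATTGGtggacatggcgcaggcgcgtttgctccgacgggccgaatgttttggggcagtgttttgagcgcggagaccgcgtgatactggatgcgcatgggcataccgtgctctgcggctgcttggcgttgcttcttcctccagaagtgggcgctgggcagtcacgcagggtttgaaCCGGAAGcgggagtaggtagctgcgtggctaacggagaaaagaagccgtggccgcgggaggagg
SARS2 (chr19:38930714-38931013, minus strand) and MRPS12 (chr19:38930694-38930993, plus strand) are another, with starts 181 bp apart and 280 shared bases, in which the MYT1L core, the CCAAT box, the GC box and the ETS motif all had a match.
SARS2: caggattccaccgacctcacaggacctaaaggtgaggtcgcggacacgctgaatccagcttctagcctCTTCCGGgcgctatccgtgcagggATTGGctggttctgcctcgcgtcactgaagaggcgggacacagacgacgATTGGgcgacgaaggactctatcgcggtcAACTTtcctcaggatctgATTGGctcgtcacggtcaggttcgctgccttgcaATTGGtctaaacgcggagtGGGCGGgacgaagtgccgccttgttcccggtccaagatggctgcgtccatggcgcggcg
MRPS12: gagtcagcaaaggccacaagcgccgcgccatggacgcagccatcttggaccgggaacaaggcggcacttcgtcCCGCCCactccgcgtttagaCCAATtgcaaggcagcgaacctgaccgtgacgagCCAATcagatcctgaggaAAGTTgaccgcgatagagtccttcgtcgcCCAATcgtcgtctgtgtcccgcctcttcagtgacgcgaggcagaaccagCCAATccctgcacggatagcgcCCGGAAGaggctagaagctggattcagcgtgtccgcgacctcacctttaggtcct
Among these 5 pairs AAGTT had a match at SARS2 and MRPS12 alone, in bases that both windows share.

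Most of the regions lay within 1000 bp of starts on opposite strands. These are counted here as divergent starts whether or not the gene bodies overlap. Of the 674 such regions at 2 genes, 189 had overlapping gene bodies. The strand of a gene was taken from the promoter table, which held 15841 of the 20033 protein-coding genes. Divergent starts accounted for 705 regions (59.9%), the start of 1 gene with the end of another for 139 (11.8%) and starts on the same strand for 60 (5.10%). No region lay at gene ends only, and for 272 regions (23.1%) the strand of at least 1 gene was not in the table. At 43 regions (3.66%) the genes included a read-through gene and one of the genes it is made of. At 29 of these (2.47% of all) there was no other gene, so that they are pairs by annotation and not by neighbourhood. Read-through genes were recognised by their joined symbols alone, so other pairs by annotation are not in these counts. In all, 1125 regions lay at 2 genes, 49 at 3 and 2 at 4, and together they touched 2349 genes, 11.7% of all protein-coding genes.

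Replicate support within the set was uneven. Peaks of 602 regions were present in all 4 libraries and those of 574 in 3. MYT1L replicate 4 had a peak in 1175 of the 1176 regions, replicate 1 in 1125, replicate 3 in 1043 and replicate 2 in 787. Replicate 2, the library with the fewest peaks, was the missing one at 389 of the 574 regions (67.8%). Replicate 4 lacked a peak at 1 region. With growing support the share of regions at gene pairs was 1.58% of regions in 1 library, 5.51% in 2, 9.47% in 3 and 11.97% in 4. The last 2 classes formed the set. The share at 1 gene rose as well, with 12.4%, 28.1%, 44.7% and 56.4%, so the rise was not particular to gene pairs. Regions also grew wider, from a median of 349 bp in 1 library to 958 bp in 4 at gene pairs.

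Gene pairs can also be defined by the annotation alone, without reference to any peak, and this allowed the libraries to be compared. The gene table held 3843 pairs with ends within 1000 bp of each other, and 30.1% of them (1155) had a member region. The share depended on how the pair was arranged. It was 62.3% of head-to-head pairs (683 of 1096), 53.0% of pairs with starts on the same strand (71 of 134), 26.3% of tandem pairs (122 of 463), in which the end of 1 gene faces the start of the next, and 1.097% of tail-to-tail pairs (7 of 638), in which both ends meet. Among pairs that share an end it was 0.262% (1 of 382), and among pairs whose strand is partly unknown 23.9% (258 of 1078). The 134 pairs with starts on the same strand and the 382 that share an end all had overlapping gene bodies. In both groups the median distance between the ends was 0 bp. Such pairs, which may be pairs by annotation and not by neighbourhood, are included in the 3843. The 7 tail-to-tail pairs were C1orf122 with MTF1, H2AC20 with H2AC21, PLCB3 with BAD, C19orf73 with LIN7B, OST4 with AGBL5, UCN with TRIM54 and RPL7L1 with PEX39. They are named because they are few, after their values were seen. A region within reach of such a pair can also lie at a start. The region at C1orf122 and MTF1 was classed with divergent starts, and that at OST4 and AGBL5 with the start of 1 gene and the end of another.

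In each MYT1L library head-to-head pairs were highest and tandem pairs lay between them and tail-to-tail pairs. A peak lay within 1000 bp of both starts at 77.2%, 47.7%, 67.2% and 93.9% of the head-to-head pairs in MYT1L replicates 1 to 4. In the IgG libraries it lay there at 1.28% and 3.01%. At tail-to-tail pairs the MYT1L values were 2.19%, 0.784%, 1.097% and 2.66%, and both IgG libraries had a peak at 0 of 638 pairs, which allows a share of up to 0.470%. Every MYT1L library thus lay far above both IgG libraries at head-to-head pairs, and the ratio of the head-to-head to the tail-to-tail share was between 35.2 and 61.2 within the MYT1L libraries. In the IgG libraries the ratio was at least 2.72 and at least 6.40, against the floor of 3 pairs per library.

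The head-to-head share minus the tail-to-tail share was 69.8 ± 18.5 percentage points in MYT1L (SD, n = 4) and 2.14 ± 1.23 in IgG (SD, n = 2), a difference of 67.7 points. An exact permutation test, two-sided, gave p = 0.133, the smallest p that 4 libraries against 2 allow. The comparison rested on unequal numbers of peaks. With the 976 strongest peaks of each library, head-to-head pairs with a peak numbered 4, 29, 6 and 81 in the MYT1L libraries and 14 and 32 in the IgG libraries, so that the groups overlapped, and the difference was 0.560 points (exact permutation p = 0.933).

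**Figure D1:**
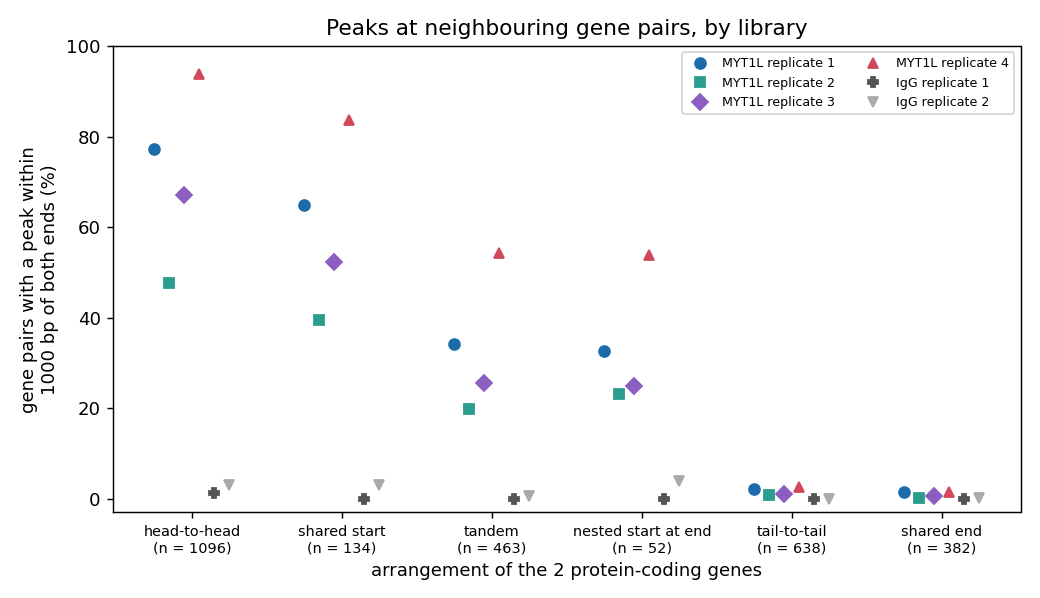
Percentage of gene pairs with a peak within 1000 bp of both ends (y axis) for each arrangement of the pair (x axis); points are single libraries, MYT1L and IgG. Head-to-head pairs reached between 47.7% and 93.9% in the MYT1L libraries and at most 3.01% in the IgG libraries, while tail-to-tail pairs stayed at or below 2.66% in all 6.

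Head-to-head pairs without a member region were mostly pairs with weaker support. Of the 1096 pairs, 214 (19.5%) had a region in 2 libraries, 108 in 1 and 43 a region in 3 or 4 libraries that an IgG peak removed. At 48 pairs (4.38%) no MYT1L library had a peak. By distance between the starts, the mean share with a peak over the MYT1L libraries was 67.5 ± 21.6% for starts 0 to 100 bp apart, 73.5 ± 17.8% for 101 to 200 bp, 74.0 ± 19.1% for 201 to 400 bp and 69.6 ± 19.4% for 401 to 1000 bp (SD, n = 4). Pairs whose gene bodies overlap (282) and pairs with separate bodies (814) had shares of 71.0 ± 18.2% and 71.7 ± 19.7%. Library levels shift all classes together: within each of the 4 libraries pairs 201 to 400 bp apart had a higher share than pairs 0 to 100 bp apart, 80.8% against 73.9%, 50% against 39.6%, 69.8% against 65.2% and 95.2% against 91.3%. This contrast was picked after the values were seen and was not tested.

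Counted per start, head-to-head starts were near a peak more often than isolated starts in each of the 4 MYT1L libraries. Isolated starts were the 10462 starts with no end of another protein-coding gene within 5000 bp, and the comparison was chosen after other values of these data were known. A peak lay within 1000 bp of 77.4%, 48.1%, 67.3% and 93.9% of the 2160 head-to-head starts in MYT1L replicates 1 to 4. For isolated starts the values were 47.9%, 28.5%, 41.2% and 61.1%. The difference was positive in 4 of 4 libraries, 27.0 ± 5.67 percentage points (SD, n = 4; range 19.6 to 32.8), with an exact sign-flip permutation p of 0.125, two-sided, the smallest that 4 libraries allow. In the IgG libraries a peak lay near 1.30% and 3.06% of head-to-head starts and near 0.621% and 1.81% of isolated starts. Head-to-head starts were thus higher there too, by 0.675 and 1.25 points. The IgG libraries held far fewer peaks, so differences in points cannot be compared between the antibodies. Equal numbers of peaks were not tried here. The starts of a pair share their peaks, so they are not independent.

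Whether gene pairs took a larger share of MYT1L peaks than of IgG peaks depended on the settings. The share of a library's peaks within 1000 bp of at least 2 genes was 5.37%, 7.17%, 6.59% and 6.78% in MYT1L replicates 1 to 4. In the IgG libraries it was 1.84% (18 peaks) and 5.51% (55 peaks), and IgG replicate 2 lay within the MYT1L range. The means were 6.48 ± 0.777% (SD, n = 4) and 3.68 ± 2.59% (SD, n = 2). The difference of 2.80 percentage points had an exact permutation p of 0.267, two-sided. With other distances the groups did not overlap: the difference was 2.33 points at 500 bp and 3.82 at 2000 bp, each with an exact permutation p of 0.133, the smallest possible. With peaks of −log10 q of at least 5 it was 6.47 points, also at p = 0.133 by exact permutation. Without IgG replicate 1 it was 0.967 points, and without IgG replicate 2 it was 4.63. With the 976 strongest peaks of each library the MYT1L values were 0.717%, 4.10%, 1.02% and 12.1% and the IgG values 1.84% and 5.33%, so that the order of the libraries was mixed (exact permutation p = 0.933).

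Heights of the member regions were close to those of regions at 1 gene. The fold over background, the authors' value for each peak, had a median over member regions of 5.71, 5.91, 5.68 and 8.74 in MYT1L replicates 1 to 4. At regions near 1 gene the medians were 5.64, 5.83, 5.75 and 8.48, and at regions near no gene 5.49, 5.66, 5.35 and 5.96. The difference between member and single-gene regions was 0.0836 ± 0.136 (SD, n = 4) and was negative in replicate 3. Replicate 4 stood above the other libraries and gave the highest fold at 545 of the 602 regions with 4 peaks (90.5%). Across those 602 regions Spearman's rho between libraries ran from 0.276 to 0.521 over the 6 pairs of libraries, a description over regions that share libraries. Median width was 905 bp at member regions and 856 bp at single-gene regions, and 51.2% and 51.1% of them had a peak in all 4 libraries.

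**Figure D2:**
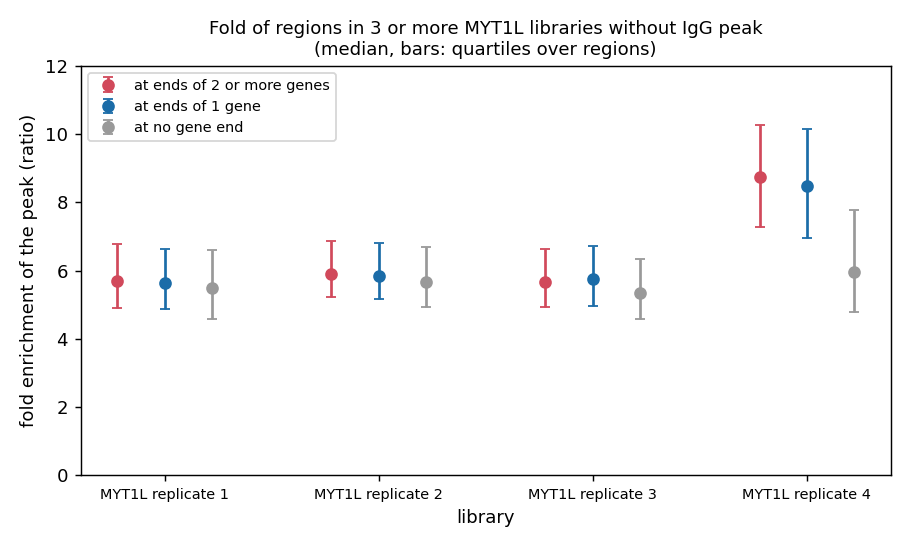
Deposited fold over background (y axis) in each MYT1L library (x axis) for regions at 2 or more genes, at 1 gene and at no gene. The medians of the first 2 classes lie close together in each library, and MYT1L replicate 4 is highest with 8.74 and 8.48.

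Detection in a library that had no part in choosing the regions differed by less than the spread between libraries. Each MYT1L library was held out in turn, and regions were chosen from peaks in all 3 others. The held-out library had a peak at 92.2%, 60.7%, 81.9% and 99.8% of the regions at gene pairs when replicates 1 to 4 were held out. At regions near 1 gene it had one at 92.8%, 59.7%, 83.4% and 99.5%. The difference was −0.216 ± 1.08 percentage points (SD, n = 4), with values from −1.49 to 0.962, higher at gene pairs in 2 of 4 libraries and with an exact sign-flip permutation p of 0.75, two-sided. Its sign changed with the processing. At regions near no gene detection was lower, 73.7 ± 19.3% against 83.6 ± 17.0% at gene pairs (SD, n = 4).

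Most of the divergent regions at 2 genes covered both starts. Where the gene bodies were separate, most summits in each MYT1L library did not lie between the starts. Of the 705 divergent regions 674 lay at 2 genes, with a median of 175 bp between the starts (quartiles 104 and 285). The region covered both starts at 536 (79.5%), 1 start at 115 and none at 23. Within 485 of them the gene bodies did not overlap, and the strongest peak of each library was located there. Its summit lay at a median distance of 163.5, 137.75, 103 and 196 bp from the midpoint of the starts in MYT1L replicates 1 to 4. It fell between the starts in 29.9%, 35.0%, 45.0% and 19.8% of regions. A single peak was present in 97.4 ± 1.46% of them (SD, n = 4). The share with a summit between the starts grew with the gap between them in each library. It was 6.25%, 5.19%, 10.3% and 0.840% for starts 1 to 100 bp apart. For starts 401 to 1300 bp apart it was 65.6%, 66.7%, 75.9% and 43.5%. A wider gap also holds more positions for a summit, and the part of this in the rise was not tested.

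Outside the starts, the libraries tended to place the summit on the side of the same gene. Over the 6 pairs of libraries 75.4 ± 2.94% of the regions with a summit outside the starts in both had it on the same gene's side (range 72.2% to 80.5%). Of 266 regions with peaks in all 4 libraries, 87 had the same position in all 4, with 24 between the starts and 63 on the side of 1 gene. At single-gene regions the summit lay downstream of the start by a median of 99, 77, 34 and 126 bp. Replicate 4 was farthest from the midpoint and farthest downstream, and replicate 3 nearest in both. The fragment lengths and alignment behind these positions are not given in the sources used here.

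**Figure D3:**
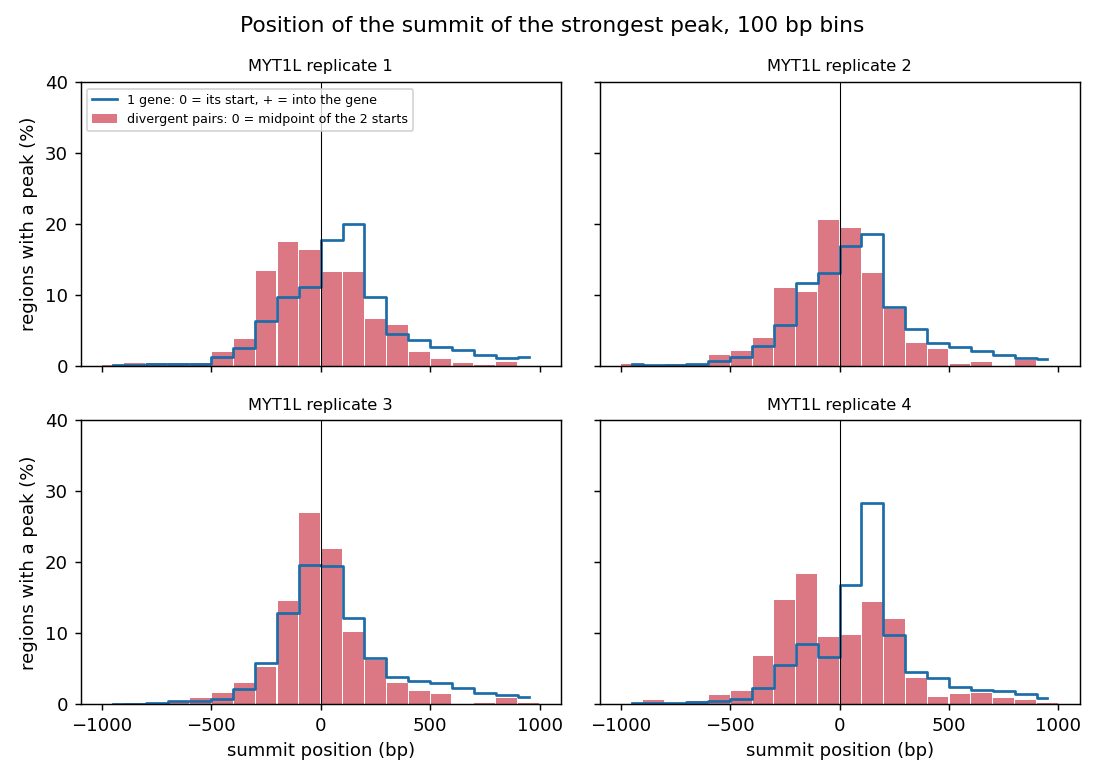
Distribution of summits in bins of 100 bp for each MYT1L library: distance from the midpoint of 2 divergent starts, and signed distance from the start at single-gene regions (x axes, bp), as percent of regions (y axes). In MYT1L replicate 4 the distribution around the midpoint has a maximum on either side of it, with 18.4% of summits in the bin from −200 to −100 bp and 14.4% in the bin from 100 to 200 bp.

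The 10 member regions with the highest mean fold among those with 4 peaks had mean folds from 10.4 to 12.6. Of these, 7 had divergent starts. The highest lay at CFAP210, a cilia and flagella associated protein, and PHOSPHO2, a phosphatase, at chr2:169694161-169694805, where the read-through gene PHOSPHO2-KLHL23 also begins. Its folds were 10.6, 12.3, 9.06 and 18.5 in MYT1L replicates 1 to 4. At UBE2D3, a ubiquitin-conjugating enzyme, and CISD2, an iron-sulfur protein of the endoplasmic reticulum and mitochondria, the region chr4:102868683-102869555 had 8.66, 8.64, 8.31 and 18.0. In both regions replicate 4 stood well above the other 3 libraries.

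At ORMDL1, a regulator of sphingolipid synthesis, and PMS1, a mismatch repair protein, the folds were 10.6, 10.2, 7.37 and 13.8. At MZT1, a component of the gamma-tubulin complex, and BORA, an activator of Aurora A kinase, they were 8.20, 10.5, 10.3 and 12.5. At CCDC59 and METTL25 they were 11.96, 9.33, 5.91 and 16.3. The remaining 5 lay at DNAI4 with MIER1, ATF7-NPFF with ATF7, EBAG9 with EBAG9UORF, SCLT1 with C4orf33, and PDE1A with DNAJC10. Replicate 4 was highest at all 10 and replicate 3 lowest at 9. ATF7-NPFF is a read-through gene that contains ATF7, so that region counts as a pair by annotation only. The symbol EBAG9UORF extends that of EBAG9, and its region was not among those counted as read-through. Whether it holds separate neighbours was not tested.

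**Figure D4:**
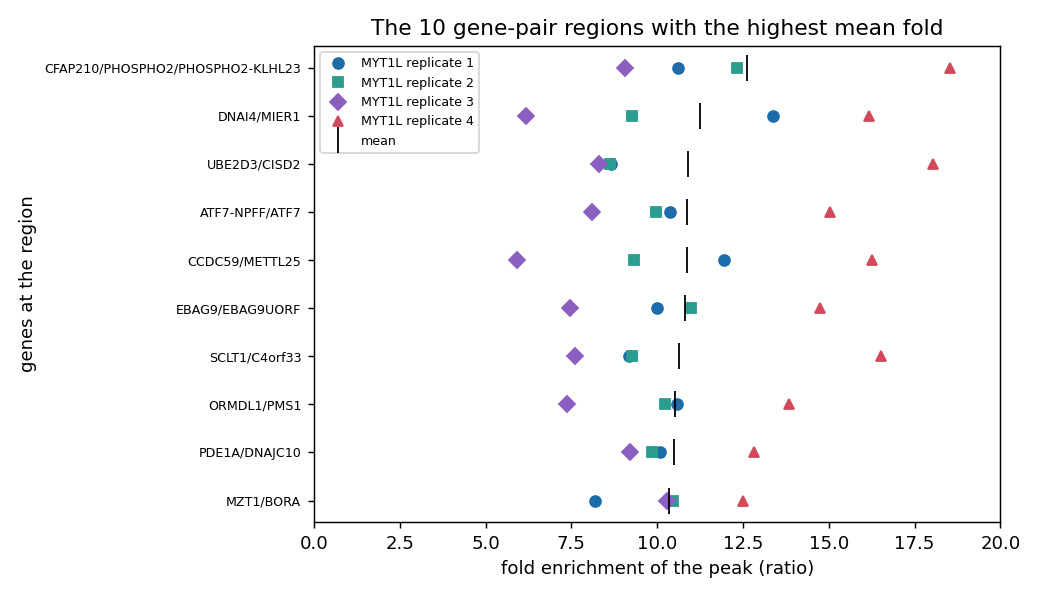
Deposited fold over background (x axis) at the 10 member regions with the highest mean fold (y axis), a point for each MYT1L library. MYT1L replicate 4 is the highest point at all 10 regions and mean folds run from 10.4 to 12.6.

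Of 14 gene pairs picked as textbook examples of divergent or close pairs, 6 had a member region, beside 30.1% of all gene pairs and 62.3% of head-to-head pairs. Both of these shares are over pairs with ends within 1000 bp of each other, which 3 of the 14 were not. At NPAT, a coactivator of histone genes, and ATM, a kinase of the DNA damage response, the folds were 6.67, 6.78, 7.31 and 11.6. At HSPD1 and HSPE1, the mitochondrial chaperonin and its partner, they were 6.28, 6.84, 5.68 and 8.22. At SARS2, the mitochondrial seryl-tRNA synthetase, and MRPS12, a mitochondrial ribosomal protein, they were 5.71, 6.72, 7.87 and 11.8. These 3 pairs had a peak in every MYT1L library. At COL4A1 and COL4A2, collagens of the basement membrane, 3 libraries had a peak, with folds of 5.72, 4.40 and 5.77 in replicates 1, 3 and 4. SURF1 and SURF2 likewise had peaks in 3 libraries.

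For 5 of the other pairs a region was present in 2 libraries only, among them TAP1 with PSMB9, SIRT3 with PSMD13, PSENEN with U2AF1L4, and BRCA2 with ZAR1L. The remaining 3, PPAT with PAICS and TBP with PSMB1 among them, had no ends within 1000 bp of each other in the gene table, which gives only the outermost coordinates of a gene.

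Member regions were spread unevenly over functional groups of genes. Over all protein-coding genes 11.7% lay at a member region, and over head-to-head genes 63.1%. DNA repair genes lay at one most often of the lists counted, 28 of 80 (35%), among them PMS2 with AIMP2 and FANCF with GAS2. At PMS2, a mismatch repair protein, and AIMP2, a part of the synthetase complex, folds were 8.85, 6.57, 7.63 and 13.7. Of the 26 DNA repair genes in head-to-head pairs 20 had a member region (76.9%). The lists were drawn up with earlier results of these data known, and the counts are descriptions.

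Genes of translation and mitochondria followed. Aminoacyl-tRNA synthetases lay at a member region in 11 of 37 cases (29.7%) and in 8 of 9 head-to-head genes, with RARS2 and HARS1 beside SARS2. Mitochondrial ribosomal proteins did in 22 of 77 (28.6%), and their head-to-head genes in 14 of 23 (60.9%, beside 63.1% of all head-to-head genes). The highest of them, MRPL27 with EME1, a nuclease subunit, had folds of 7.48, 8.44 and 17.4 in replicates 1, 3 and 4 and no peak in replicate 2. Respiratory chain genes did in 17 of 80 (21.3%), among them NDUFB5 of complex I beside MRPL47, and their head-to-head genes in 10 of 21 (47.6%). Cytosolic ribosomal protein genes, taken by symbol and so including paralogs such as RPL7L1 and RPSA2, did in 16 of 87 (18.4%) and in 9 of 15 head-to-head genes. Replication-dependent histone genes, which lie in clusters of near-identical copies, did in 18 of 70 (25.7%), but their head-to-head genes in only 8 of 25 (32%). Reads from near-identical copies may have been placed at either copy.

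**Figure D5:**
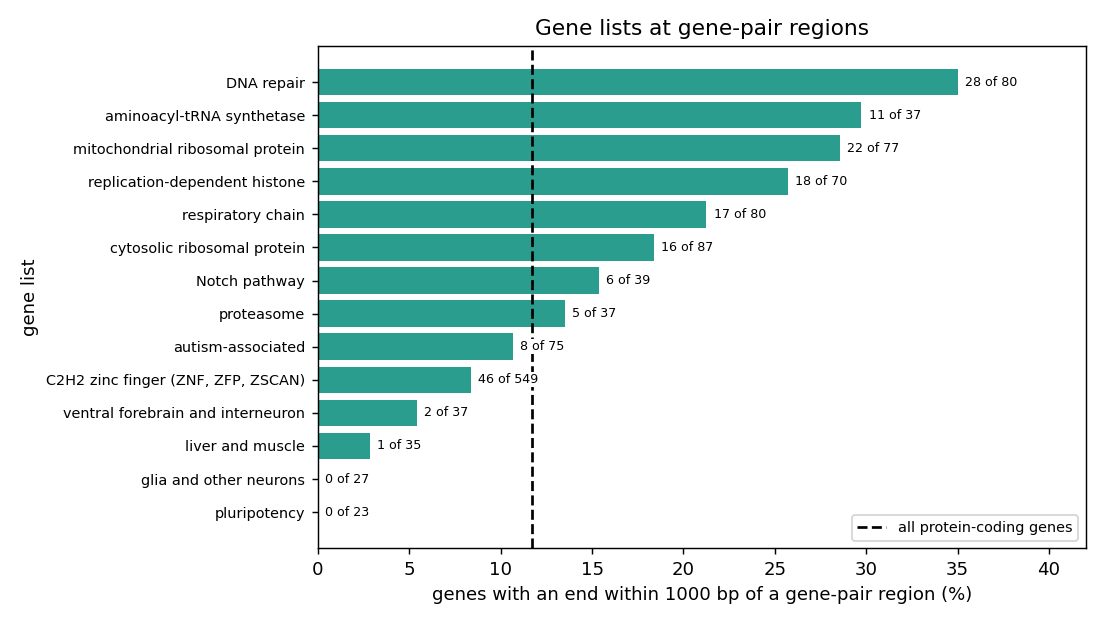
Percentage of the genes of each list that lie at a member region (axis from 0, percent), with counts; the line marks all protein-coding genes, 11.7%. DNA repair is highest at 35%, and pluripotency and glia and other neurons are at 0.

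Genes of neuronal identity and disease were described by the same counts, against 11.7% over all genes and 63.1% over all head-to-head genes. Autism-associated genes lay at a member region in 8 of 75 cases (10.7%), including ASH1L, a histone methyltransferase, TRIP12 and MBD5. At MBD5, a methyl-CpG binding domain protein, and ORC4, a subunit of the replication origin complex, folds were 6.26, 6.16, 6.15 and 7.52. Notch pathway genes did in 6 of 39 (15.4%), among them NCSTN, a subunit of gamma-secretase, NOTCH4, MAML1 and MIB1. Their head-to-head genes did in 3 of 6. The regions of NOTCH4 and MAML1 were not divergent but lay at the start of 1 gene with the end of another. Of 37 genes of the ventral forebrain and interneurons 2 did, among them SOX6, a transcription factor of maturing interneurons, with folds of 6.35, 5.36 and 7.10 in replicates 1, 3 and 4. Pluripotency genes (0 of 23) and genes of glia and other neurons (0 of 27) had none, but only 1 and 5 of them had a neighbour within 1000 bp and 0 were head-to-head. Of the ventral forebrain genes 3 had such a neighbour, and of all paired genes 38.7% lay at a member region. Of 35 liver and muscle genes 1 lay at a member region, TNNC2, but only 2 of the 35 had a neighbour within 1000 bp. Proteasome genes did in 5 of 37 (13.5%) and C2H2 zinc finger genes, which are often in tandem clusters, in 46 of 549 (8.38%). Of the head-to-head zinc finger genes 29 of 44 (65.9%) had a member region, close to the share over all head-to-head genes.

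The promoters of genes with divergent starts at a member region were rich in CG dinucleotides but no more so than those at single-gene regions. The median number of CG in 300 bases was 27 in the 1424 promoters of these genes, 29 in 4471 promoters at single-gene regions, 23 in 797 head-to-head genes without a member region and 22 over all 15841. AAGTT had a match in 25% of the divergent member promoters, 22.4% at single-gene regions and 29.3% of all promoters. The ETS motif CCGGAAG had one in 25.9%, 18.2% and 14.2%, and in 24.97% of head-to-head promoters without a member region. GGGCGG had one in 72.3%, 75.8% and 58.5%, CCAAT in 40.3%, 37.7% and 36.4%, and TATAAA in 3.44%, 4.70% and 9.63%. The NRF1 consensus had one in 2.39% and AAGATGGCG in 5.69%, against 1.75% and 2.74% of all promoters, 2.15% and 4.07% at single-gene regions, and 3.51% and 4.27% of head-to-head promoters without a member region. Median mean fold was 6.78 at the 249 divergent regions with AAGTT in either promoter and 6.84 at the 456 without. Windows of the same pair overlap, so the promoters are not independent, and a match is a description of the sequence and not of a binding site.

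By chromosome, the share of head-to-head pairs with a member region was lowest on the X chromosome, 9 of 34 (26.5%, 95% Wilson interval 14.6% to 43.1%), and on chromosome 19, 33 of 77 (42.9%, 32.4% to 54.0%), among chromosomes with any such pair, beside 62.3% over all chromosomes. On chromosome 1, which held the most member regions (128), it was 74 of 112 (66.1%, 56.9% to 74.2%). The intervals cover counting error only and these chromosomes were picked after the values were seen. Chromosome 8 had 99 gene pairs and 41 member regions but 0 pairs counted as head-to-head. That count requires the strand of both genes from the promoter table, so it does not show that such pairs are absent there. Beside the protein-coding genes, a long noncoding RNA gene ended or began within reach of 8.59% of the member regions and 26.8% of the single-gene regions. A microRNA gene did so at 21 member regions (1.79%) and at 68 single-gene regions (1.23%).

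The limits that define the set cut through a continuous range. Of the member regions 772 reached an end of a second gene directly. At 29 regions the second gene lay 901 to 1000 bp away, with a median mean fold of 6.25, and at 30 regions just outside it lay 1001 to 1100 bp away, with 6.06.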

How the data were processed

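Occupancy was measured by CUT&RUN in 4 MYT1L and 2 IgG libraries, grouped by sample title. The authors deposited 1 peak list per library. For every peak the authors gave a fold enrichment (a ratio over background), p and q as −log10 values, a score and the offset of the summit, without read numbers. MACS2 and the build hg38 are named in the submitters' processing notes; the aligner, the threshold and the control library are not given in the sources used here. Peaks were used as deposited, so the authors' threshold and depth set how many there are.

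Peaks were merged and compared with RefSeq gene ends (GRCh38.p14) in Python 3.11.15 with pandas 2.3.3, and bedtools 2.31.1 gave 0 differences in regions or members. Group differences were tested with scipy 1.17.1 by exact permutation over 15 splits, and library-wise differences by exact sign flips. The code was tested on simulated data. The planned log2 ratio of head-to-head to tail-to-tail shares had no value in IgG, where the tail-to-tail count was 0, so the difference in percentage points was used. Alternatives changed the distance, the peaks used, the number of libraries, the width classes and the replicates.

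Named regions were the 10 highest in mean fold, the 5 at the most genes, those at the listed pairs and up to 4 genes per list. Of these the text gives a part, some named regions are not reported here, and promoters of 5 pairs are printed for length. The members, gene lists and comparisons were chosen with earlier results of these data known.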

Additional observations from a re-analysis of the deposited data

Results flagged for a closer look

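Among 45 measures compared over the 4 MYT1L libraries, MYT1L replicate 4 lay far from the other 3 in 7. Chance alone would mark about 1 in 20 of independent measures, but these are not independent. Of the 45, 34 were folds at named regions, which share any shift of a whole library. The 7 therefore cannot be set against that rate. In replicate 4 the median fold over the member regions was 8.74 and the median −log10 q was 20.7. Its fold was 18.0 at UBE2D3 with CISD2, 11.6 at NPAT with ATM, 10.003 at PSMA1 with PDE3B, 11.6 at FTSJ3 with PSMC5 and 7.52 at ORC4 with MBD5. Replicate 4 also had the most peaks. The part of depth in these values was not tested.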

How the results depend on the processing

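The number of member regions was 781 with peaks of −log10 q of at least 5 and 602 with a peak required in all 4 libraries, against 1176. Leaving out 1 library at a time gave between 1137 and 1570 regions. The held-out difference, −0.216 points, was 0.768 with a distance of 500 bp (exact sign-flip permutation p = 0.125), −0.862 with 2000 bp, −1.46 within 5 width classes and 1.66 with −log10 q of at least 5, and between −0.0304 and 0.773 with 1 library left out. It was positive without replicate 2 (0.275), without replicate 3 (0.773) and without replicate 4 (0.335). The difference between member and single-gene regions was 0.764 in median −log10 q in place of fold. The head-to-head difference ran from 60.5 to 75.3 points and the share of peaks from 0.967 to 4.63 points with 1 library left out. As a log2 ratio with a floor of 3 counts, chosen after seeing the data, the head-to-head difference was 3.47 (exact permutation p = 0.133), where the IgG values are bounds. With the replicate number as a block, over 2 pairs of libraries, the differences were 58.8 and 2.59 points (exact sign-flip permutation p = 0.5 for both); nothing in the labels says that equal numbers share a culture, and the peak names of the MYT1L lists carry numbers 1 higher than the titles, so which libraries pair is in doubt. Read depth is unknown, so a missing peak is not evidence of no binding, and 3 against 2 or 4 against 1 library cannot reach a p of 0.05.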
